A study of Mus musculus with 24 samples.

Results

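The genes described here are those whose mouse symbol is Zfp followed by a number, leaving out Zfp36, Zfp36l1 and Zfp36l2, which encode RNA-binding proteins of another kind. A gene was taken when its deposited RPKM (reads scaled by gene length and by library depth, a level per length) was at least 1 in 1 or both RNA-seq libraries. This gave 292 genes of the 393 Zfp genes in the table, among 10436 genes that reached the same level and 22371 genes in all. Of the 292 genes, 285 reached 1 RPKM in both libraries, 7 only in the untreated library and 0 only in the vitamin C library. The name is a label and not a domain annotation, so the set mixes large repressor families with single-copy genes of other roles.

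The cells were mouse bone marrow cells immortalized by HOXA9, a homeobox factor that keeps myeloid progenitors dividing, with a vector for IDH1 R132H, the mutant isocitrate dehydrogenase that makes 2-hydroxyglutarate. All groups grew in medium with IL-3, IL-6 and SCF, and a wild-type IDH1 vector was used only for part of the methylated-DNA immunoprecipitation (MeDIP-seq). Vitamin C was brought to 0.345 mM at 0, 24 and 48 h and treated cells were harvested at 72 h, while the harvest time of untreated cells was not recorded in the labels. The series title names vitamin C and the epigenome of IDH1 mutant leukaemia as its subject. Each of the 24 groups was 1 library, so every difference below has no replicate check, no test between conditions was made, and intervals cover counting error only. The model is an immortalized culture with vectors and not primary leukaemia, and the number of clones or donors behind it was not stated.

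Most genes with C2H2 zinc fingers encode proteins that bind DNA through a row of fingers, each held by a zinc ion. In many of them a KRAB domain recruits Trim28, which brings the histone methyltransferase Setdb1 and heterochromatin proteins to the bound site, and many of those sites lie in transposable elements. KRAB zinc finger genes have multiplied by local duplication, so they stand in tandem clusters of close relatives, and reads from near-identical copies are hard to assign to 1 gene. Other Zfp genes encode general promoter factors, splicing or spindle proteins and translation factors.

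Promoters of 243 of the 292 genes were matched in a RefSeq table of GRCm38.p6. The 6 promoters below are shown because they hold the 8-letter words that stood out most from other promoters, and because their genes were all lower with vitamin C. Each is the 150 bases before the annotated start, read 5′ to 3′ on the gene's strand. In the first 3 the capitals mark TGTCACTC, the reverse complement of GAGTGACA, and then CCAATCAG, a longer form of the CCAAT box.
Zfp967, chr2:176520854-176521003, plus strand: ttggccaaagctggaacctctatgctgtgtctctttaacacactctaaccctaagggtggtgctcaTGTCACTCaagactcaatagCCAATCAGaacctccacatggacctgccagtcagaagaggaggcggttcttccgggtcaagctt
Zfp442, chr2:150451502-150451651, minus strand: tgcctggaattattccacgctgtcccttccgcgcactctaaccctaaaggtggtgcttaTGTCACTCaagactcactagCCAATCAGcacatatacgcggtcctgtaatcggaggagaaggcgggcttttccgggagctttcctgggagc
Zfp866, chr8:69774912-69775061, minus strand: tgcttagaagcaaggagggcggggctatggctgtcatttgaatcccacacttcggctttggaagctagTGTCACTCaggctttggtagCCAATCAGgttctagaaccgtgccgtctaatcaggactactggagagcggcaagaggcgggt
In the next 3 the capitals mark AATGTAGT or its reverse complement ACTACATT.
Zfp595, chr13:67332561-67332710, minus strand: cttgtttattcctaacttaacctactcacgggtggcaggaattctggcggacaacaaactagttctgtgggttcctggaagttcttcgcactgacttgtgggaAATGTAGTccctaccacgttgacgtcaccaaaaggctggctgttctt
Zfp60, chr7:27731259-27731408, plus strand: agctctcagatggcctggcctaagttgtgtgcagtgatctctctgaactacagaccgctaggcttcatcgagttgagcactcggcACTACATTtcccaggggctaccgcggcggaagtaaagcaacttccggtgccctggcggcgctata
Zfp566, chr7:30090511-30090660, minus strand: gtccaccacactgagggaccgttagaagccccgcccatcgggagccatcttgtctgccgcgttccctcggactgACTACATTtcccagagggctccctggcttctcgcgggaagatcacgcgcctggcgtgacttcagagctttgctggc
In Zfp967, Zfp442 and Zfp866 the CCAATCAG word began 64, 71 and 62 bases before the start and the TGTCACTC word 84, 91 and 82 bases before it. These 3 genes lie on 2 chromosomes, and the pair of words kept nearly the same distance in each. In Zfp595, Zfp60 and Zfp566, on chromosomes 13 and 7, the third word began 47, 65 and 76 bases before the start. A match is a description of letters, not evidence of a bound factor.

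Zfp genes were expressed at low to middle levels. Their median was 6.32 RPKM untreated and 5.35 RPKM with vitamin C, against 15.4 and 15.2 RPKM for all genes that reached 1 RPKM. The middle 50 percent of Zfp genes lay between 3.27 and 12.6 RPKM untreated and between 2.61 and 10.99 RPKM with vitamin C. The summed level of the set was 2837 RPKM untreated and 2547 RPKM with vitamin C.

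The highest levels belonged to genes that mostly stand outside the clusters. Zfp207, whose protein binds the spindle checkpoint protein Bub3, had 61.6 RPKM untreated and 54.1 RPKM with vitamin C. Zfp146, a small protein made almost only of fingers, had 55.7 and 46.9 RPKM. Zfp106, an RNA-binding protein, had 54.7 RPKM untreated and 66.8 RPKM with vitamin C, and so moved the other way. Zfp598, the ubiquitin ligase that senses collided ribosomes, had 38.004 RPKM untreated and 56.0 RPKM with vitamin C. Zfp703, a transcriptional corepressor, had 43.1 and 56.2 RPKM. The other genes of the 10 highest, Zfp422, Zfp219, Zfp706, Zfp771 and Zfp330, had between 36.1 and 48.3 RPKM untreated and were all lower with vitamin C by less than Zfp146. Of these 10 genes 7 were lower and 3 higher, and 1 interval, that of Zfp422, held no difference (ratio 0.987, 95% interval 0.964 to 1.01).

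At the bottom, the threshold of 1 RPKM separated genes with like values. Just inside it were Zfp287 with 1.01 RPKM untreated and 0.579 RPKM with vitamin C, Zfp78 with 1.09 and 0.578 RPKM, and Zfp976 with 1.07 and 1.22 RPKM. Just outside it were Zfp458 with 0.976 and 0.762 RPKM, Zfp14 with 0.919 and 0.640 RPKM, and Zfp619 with 0.822 and 0.838 RPKM. In all 101 Zfp genes stayed below 1 RPKM, of which 38 had 0 reads in both libraries. Zfp42 (also called Rex1, a marker of pluripotent cells), Zfp462 and Zfp521 had 0 reads in both, and Zfp423 had 2 reads in each.

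Across the set, levels were lower with vitamin C in small steps. The log2 change, log2 of (vitamin C RPKM + 0.5) over (untreated RPKM + 0.5), had a median of -0.24 with quartiles of -0.44 and -0.06. It was below 0 for 237 of 292 genes and above 0 for 55, where 55.2 percent of all genes tested were below 0 with a median of -0.04. The added 0.5 understates the change of genes near 1 RPKM. In bulk RNA, fewer cells that express a gene and less RNA per cell cannot be told apart.

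Counting error alone was small beside many of these differences, since the genes had a median of 1823 reads untreated and 1828 with vitamin C. The counts summed over all genes were 86804487 and 111453443 reads. The exact 95% interval of the RPKM ratio lay below 1 for 210 Zfp genes (71.9 percent), against 47.1 percent of all genes tested. It lay above 1 for 37 Zfp genes (12.7 percent), against 37.2 percent of all genes. What spread separate cultures would show is unknown here.

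Large differences were rare. A log2 change of 1 or more, 2-fold on this scale, was reached upward by 0 of 292 Zfp genes (background 2.38 percent of all genes tested) and downward by 3 (background 1.92 percent). At 1.5-fold the counts were 34 lower (background 6.64 percent) and 0 higher (background 6.21 percent). The plot of levels shows this as a long thin band of points just under the line of equal RPKM.

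**Figure D1:**
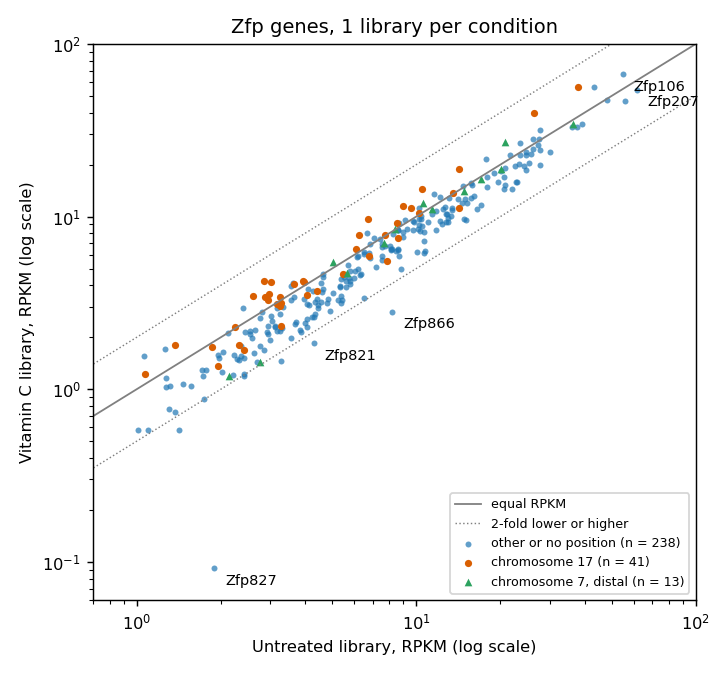
RPKM of each of the 292 Zfp genes in the untreated library (x) and the vitamin C library (y), both on log scales, 1 library per condition. Most points lie just under the solid line of equal RPKM. Zfp827 (1.89 and 0.0916 RPKM) lies far under the dotted line of 2-fold. Most points of chromosome 17 and distal chromosome 7 lie nearer to or above the solid line. Of the 13 on distal chromosome 7, 2 were 1.5-fold or more lower, Zfp629 among them.

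Zfp827, whose protein is known from work on telomere chromatin, differed most. It had 1233 reads and 1.89 RPKM untreated, and 76 reads and 0.0916 RPKM with vitamin C. That is 20.7-fold lower in RPKM, with an interval of 16.4 to 26.5. Its median neighbour, over 34 other genes within 5 Mb, had a log2 change of -0.02. It spans chr8:79027486-79193768 (GRCm38.p6), and in this span with 5 kb on each side the peak lists of the authors differed between conditions. H3K4me1, which marks enhancers, had 3 peaks there in untreated cells and 0 in treated cells. For H3K27ac, found on active promoters and enhancers, the numbers were 1 and 0, and for H3K4me3, found on promoters, 4 and 3. PU.1, a myeloid factor that binds ETS sites, had 4 and 1. The H3K4me1 and PU.1 lists were shorter with vitamin C, with 57750 and 45657 peaks and with 61611 and 23522 peaks. Some Zfp genes that differed little had like counts, such as Zfp984 (H3K4me1, 4 and 0) and Zfp236 (PU.1, 4 and 1). Others had more H3K4me1 peaks with vitamin C, such as Zfp326 with 2 and 9. The part of list length was not tested.

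Zfp827 was also among the Zfp genes with the most listed methylation regions, 5 in all. The span held 2 WGBS regions named iMR (chr8:79030821-79031206 and chr8:79160035-79160052), 2 MeDIP iMRs (chr8:79031001-79031500 and chr8:79036501-79037000) and 1 MeDIP deMR (chr8:79113001-79113500). The first WGBS and MeDIP regions overlap and lie about 2577 and 2814 bases inside the gene from its start, by their centres. The tags are the authors', and their direction and thresholds were not stated in the files.

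The other Zfp genes past 2-fold were also on chromosome 8, and the 3 genes lie in separate places. Zfp866, whose promoter is printed above, had 3344 reads and 8.21 RPKM untreated, and 1467 reads and 2.82 RPKM with vitamin C, 2.91-fold lower (2.74 to 3.10). Zfp821 had 666 reads and 4.31 RPKM untreated and 364 reads and 1.84 RPKM with vitamin C, 2.34-fold lower (2.05 to 2.66). Its log2 change of -1.04 lies near the threshold, and it no longer passed 2-fold with 1 RPKM added (-0.90), when centred on all genes (-0.99) or against its neighbours (-0.92). Zfp827 and Zfp866 appear on the authors' deposited table of lower genes, which has 221 entries, and 0 Zfp genes appear on that of 450 higher genes. The window of Zfp866 held 1 peak of H3K4me3 and 1 of H3K27ac in both conditions, and that of Zfp821 held 3 and 2 in both. H3K4me1 peaks were more numerous with vitamin C in both windows, 1 and 2 at Zfp866 and 2 and 4 at Zfp821, and PU.1 had 1 and 1 at Zfp866 and 1 and 0 at Zfp821.

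In the ratio of RPKM itself, without the added 0.5, 6 Zfp genes were at 0.5 or below. The share of all genes tested at this cut was not counted, so the number serves only to name the genes. Beside the 3 above these were Zfp967 with 3.27 RPKM untreated and 1.46 RPKM with vitamin C, Zfp773 with 1.42 and 0.578 RPKM, and Zfp831 with 2.42 and 1.19 RPKM. The 12 Zfp genes with the lowest log2 change went on with Zfp276 (6.51 and 3.40 RPKM), Zfp516 (8.80 and 4.96 RPKM), Zfp784 (2.41 and 1.23 RPKM), Zfp629 (2.76 and 1.43 RPKM), Zfp526 (10.7 and 6.13 RPKM) and Zfp566 (3.88 and 2.14 RPKM). Their log2 changes ran from -0.73 to -2.02, and the interval of each lay below 1. Chromosomes 7 and 8 held 5 and 4 of these 12.

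At the other end the 12 highest log2 changes were small, from 0.34 to 0.58, and 9 of the 12 genes lie on chromosome 17. Zfp414 led with 26.4 RPKM untreated and 39.6 RPKM with vitamin C (ratio 1.501, 1.44 to 1.56). Zfp598, with the levels above, had a ratio of 1.47 (1.44 to 1.51). Against the median of other genes within 5 Mb, the log2 change of Zfp414 was 0.34 in place of 0.58. That of Zfp598 was 0.25 in place of 0.55. The next were the neighbouring Zfp119b (2.84 and 4.24 RPKM) and Zfp119a (3.024 and 4.18 RPKM), and Zfp51 (6.75 and 9.65 RPKM), Zfp213 (10.5 and 14.5 RPKM) and Zfp52 (14.3 and 19.0 RPKM). The 3 genes off chromosome 17 were Zfp703 on chromosome 8, Zfp667 in a cluster of proximal chromosome 7 (1.06 and 1.56 RPKM), and Zfp511 on distal chromosome 7 (20.8 and 27.1 RPKM).

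Among 22 of 26 Zfp genes with described roles that reached 1 RPKM, 15 were lower and 7 higher. Zfp445, which with Zfp57 keeps methylation at imprinted control regions, had 21.9 RPKM untreated and 14.4 RPKM with vitamin C (ratio 0.656, 0.629 to 0.685). Zfp57 had 7.70 and 7.87 RPKM, a ratio whose interval held 1 (0.966 to 1.08). Zfp809, which silences proviruses primed by proline tRNA, had 11.02 and 9.30 RPKM, and Zfp568, known as a repressor of a placental Igf2 promoter, had 9.71 and 9.48 RPKM. Of these KRAB genes with known targets, Zfp445 and Zfp809 were lower by more than counting error, and Zfp57 and Zfp568 differed by less than it. Their surroundings were unlike. Zfp57, with a log2 change of 0.03, lies on chromosome 17, where the other genes had a median of 0.30. On chromosome 9, which holds Zfp445 and Zfp809, that median was -0.05, and on proximal chromosome 7, which holds Zfp568, -0.08.

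Zfp263, a zinc finger factor with SCAN and KRAB domains, had 17.02 RPKM untreated and 11.6 RPKM with vitamin C. Zfp292 had 12.8 and 9.27 RPKM, Zfp644 5.74 and 4.41 RPKM, and Zfp335, a component of a histone H3K4 methyltransferase complex, 24.4 and 19.7 RPKM. Some others were higher or nearly level. Zfp143, which binds promoters and chromatin loop anchors, had 10.6 and 12.1 RPKM, Zfp384 23.5 and 26.8 RPKM and Zfp131 17.8 and 21.5 RPKM. The log2 change of Zfp143, 0.18, lay below the median of 0.33 of the other genes on distal chromosome 7. Those of Zfp384 and Zfp131, 0.19 and 0.27, lay above the medians of their chromosomes 6 and 13, 0.10 and -0.05. Zfp281, a regulator of pluripotency genes, had 10.4 and 10.1 RPKM, an interval that held 1. Zfp148 and Zfp217 were slightly lower, with 12.5 and 11.1 RPKM and with 27.6 and 24.4 RPKM.

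The difference from other genes was seen at every level of expression. Among genes with a mean of under 2 RPKM the median log2 change was -0.40 for 35 Zfp genes and -0.15 for 684 other genes. From 2 to 5 RPKM it was -0.36 for 97 Zfp genes and -0.08 for 1221 other genes, and from 5 to 10 RPKM it was -0.21 and -0.06. At 20 RPKM or more, 31 Zfp genes had a median of -0.08 and 4275 other genes -0.01. The gap was widest in the 2 classes below 5 RPKM. Zinc finger genes of other names were lower too in part: 34 of 48 Zbtb, Zscan, Zkscan and Zfhx genes were lower, with a median of -0.28, and 10 of 19 genes with other Zf symbols, with a median of -0.05.

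Position on the chromosome moved with the change for all genes, and for Zfp genes with it. On chromosome 17 the 510 other genes had a median log2 change of 0.30 and 81.8 percent were higher with vitamin C. From 90 Mb onward on chromosome 7 the 314 other genes had a median of 0.33, while the 402 other genes before that point had -0.08. Both stretches hold Zfp genes, 41 on chromosome 17 and 13 on distal chromosome 7. The median of the Zfp genes was 0.06 on chromosome 17, with 26 of 41 higher, and -0.08 on distal chromosome 7, with 9 of 13 lower. A number of DNA copies that differs between the cultures was not tested, since the ChIP inputs were not analysed here.

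Set against their neighbours, Zfp genes were lower in these stretches as well. The log2 change of a Zfp gene minus the median of the other genes within 5 Mb had a median of -0.22 over 290 genes with a position, and 225 were below 0. On chromosome 17 this difference had a median of -0.23 with 32 of 41 below 0, on distal chromosome 7 it was -0.41 with 12 of 13, and elsewhere -0.20 with 181 of 236. Outside chromosome 17 and distal chromosome 7, 211 of 236 Zfp genes were lower (median -0.29), against 57.5 percent of 8957 other genes (median -0.06).

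**Figure D2:**
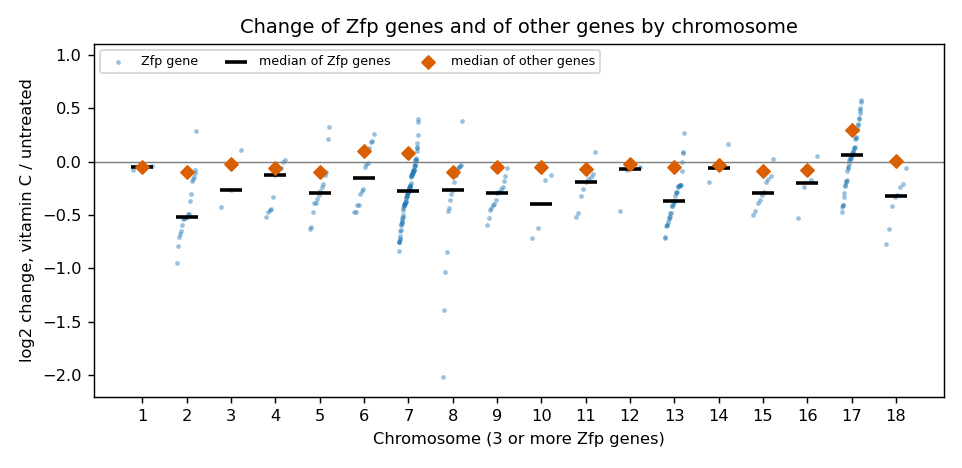
log2 change (vitamin C over untreated) of each Zfp gene by chromosome, for chromosomes with 3 or more of them, with the median of the Zfp genes as a black bar and the median of the other genes as an orange diamond. The bar lies below the diamond on 17 of 18 chromosomes, chromosome 1 with 3 Zfp genes being the exception, and chromosome 17 is the 1 chromosome with a bar above 0.

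Chromosome 7 holds 74 of the 292 Zfp genes, chromosome 17 holds 41, chromosome 13 holds 31 and chromosome 2 holds 21. A cluster was defined as at least 3 annotated Zfp genes with gaps of at most 500 kb. This gave 35 clusters with 249 of the 413 Zfp genes in the annotation and 184 of the 290 positioned genes described here (63.4 percent). Clusters are named by chromosome and letter in order. Clustered genes had lower levels than the others, with medians of 5.30 RPKM against 9.96 RPKM untreated. Outside chromosome 17 and distal chromosome 7, 132 of 139 clustered genes were lower (median -0.33) and 79 of 97 others (median -0.21).

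The clusters differed from each other. Of 26 clusters with at least 3 Zfp genes at 1 RPKM, 24 had a median below 0, 17 had all their genes lower and 1 had all of them higher. The median lay below that of the other genes of the cluster and 5 Mb on each side in 23 clusters. The 3 exceptions were cluster 4 (-0.07 against -0.11), cluster 7b (-0.08 against -0.10) and cluster 17c (0.41 against 0.32).

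**Figure D3:**
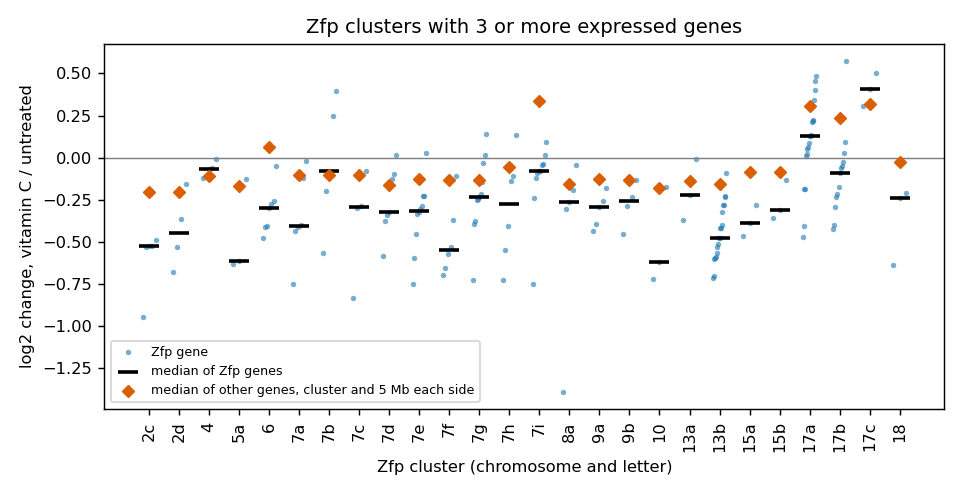
log2 change of each Zfp gene in the 26 clusters with 3 or more expressed Zfp genes, with the median of each cluster (black bar) and the median of the other genes in the cluster and 5 Mb on each side (orange diamond). Cluster 13b lies wholly below 0, cluster 7i has its bar near 0 under a diamond at 0.34, and clusters 17a and 17c have bars above 0.

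Cluster 13b on chromosome 13 is the largest, with 25 annotated Zfp genes of which 19 reached 1 RPKM. All 19 were lower, with a median of -0.48 where the other genes around had -0.16. Zfp87 had 10.7 RPKM untreated and 6.36 RPKM with vitamin C, Zfp58 had 4.91 and 2.82 RPKM, Zfp85 had 4.36 and 2.71 RPKM, and Zfp595, printed above, had 2.64 and 1.62 RPKM. The smallest difference was that of Zfp429, with 4.09 and 3.81 RPKM. Close relatives such as Zfp874a (4.23 and 2.62 RPKM) and Zfp874b (4.82 and 3.32 RPKM), or Zfp729a and Zfp729b, may share reads, so their single values are uncertain.

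On distal chromosome 2, clusters 2c and 2d held 9 Zfp genes, all lower. In cluster 2c, Zfp965 had 3.69 RPKM untreated and 2.40 RPKM with vitamin C, Zfp966 had 2.99 and 1.93 RPKM, Zfp968 had 2.29 and 1.49 RPKM, Zfp973 had 3.72 and 2.44 RPKM, and Zfp967 was given above. Apart from Zfp967 their log2 changes lay between -0.49 and -0.53, so near to each other that shared reads are a limit. In cluster 2d, Zfp970 had 5.38 and 3.18 RPKM, Zfp971 10.6 and 7.21 RPKM, Zfp931 5.63 and 4.26 RPKM, and Zfp972 3.03 and 2.66 RPKM. The same stretch holds 19 tested genes with Gm or Rik symbols, all 19 of them lower as well, with a median of -0.34.

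Cluster 17a stood on the other side of 0, with 15 of 19 genes higher and a median of 0.13, where the other genes around had 0.30. Its genes ranged from Zfp760, with 7.85 RPKM untreated and 5.53 RPKM with vitamin C, to Zfp51, given above. Zfp160 (8.59 and 7.48 RPKM), Zfp677 (2.41 and 1.70 RPKM) and Zfp54 (4.07 and 3.51 RPKM) were lower although Zfp53, Zfp52 and Zfp51 nearby were higher. Cluster 17b had 10 of 13 genes lower, with a median of -0.09, among other genes with 0.23. There Zfp763 (3.28 and 2.32 RPKM) and Zfp870 (1.96 and 1.36 RPKM) were lowest, and the set includes the pseudogene Zfp422-ps, whose reads may come in part from Zfp422.

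Among the 9 clusters of chromosome 7, cluster 7f had the lowest median, -0.55, with 6 of 6 genes lower. It holds Zfp60 (4.05 RPKM untreated and 2.30 RPKM with vitamin C), Zfp626 (5.45 and 3.28 RPKM) and Zfp607a (5.38 and 3.46 RPKM). Cluster 7i on distal chromosome 7 has 10 genes with a median of -0.08 among other genes with 0.34. Most of its genes had nearly the same level in both libraries, such as Zfp553 with 17.03 and 16.6 RPKM and Zfp768 with 14.9 and 14.0 RPKM, while Zfp629 was far lower, as given above. In cluster 4, Zfp984, Zfp991, Zfp992, Zfp993 and Zfp933 differed little, with log2 changes from -0.12 to -0.01 at 5.85 to 24.7 RPKM.

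The words printed above were found by a search over all 8-letter words in promoter windows from 250 bases before to 50 bases after the start, on both strands. AATGTAGT was in 30 of 243 Zfp promoters (12.3 percent), in 1.60 percent of the other genes tested and in 1.24 percent of all 27025 promoters of the table. GAGTGACA was in 30 Zfp promoters (12.3 percent), in 1.64 percent of other genes tested and in 1.66 percent of all. CCAATCAG was in 41 (16.9 percent), 6.28 percent and 4.31 percent, and it contains the CCAAT box, which 52.3 percent of Zfp promoters and 39.5 percent of other genes tested held. Duplicated genes share promoter sequence, so these genes are not independent of each other.

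Genes with these words were mostly lower with vitamin C. All 30 Zfp genes with AATGTAGT were lower, with a median log2 change of -0.38 and values from -0.83 (Zfp773) to -0.08 (Zfp772). They stand in clusters 7b, 7c, 7e, 7f, 7g and 13b or outside clusters, and 0 of them are on chromosome 17. The 17 genes with both CCAATCAG and GAGTGACA were all lower, with a median of -0.52. They include Zfp120 and Zfp442 of cluster 2a, the 5 genes of cluster 2c, Zfp157 and Zfp68 of cluster 5a, Zfp866, Zfp868 and Zfp869 of cluster 8a, Zfp938 and Zfp958. The 160 Zfp genes with none of the 3 words had a median of -0.18, with 118 lower. Of these 24 lie on chromosome 17, and without them the median was -0.23, with 112 of 136 lower. The groups also differ in clustering, with 25 of the 30, 16 of the 17 and 92 of the 160 genes in clusters. Clustered Zfp genes outside chromosome 17 and distal chromosome 7, with or without the words, had a median of -0.33, with 132 of 139 lower. The part of the words beside that of clustering was not tested.

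Other genes with the same words did not have such medians. The 126 other genes with AATGTAGT had a median of -0.03, the 129 with GAGTGACA -0.09 and the 495 with CCAATCAG -0.04. Position went with the words here too: of 13 Zfp genes with GAGTGACA but without CCAATCAG, 7 lie on chromosome 17, and 5 of those 7 were higher. Zfp promoters also held fewer CpG sites, a median of 14 in 300 bases against 21 in other genes tested, and 11 for Zfp genes in clusters. Their GC content had a median of 54.3 percent against 61.0 percent, and the GC box GGGCGG was in 45.3 percent against 66.4 percent.

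**Figure D4:**
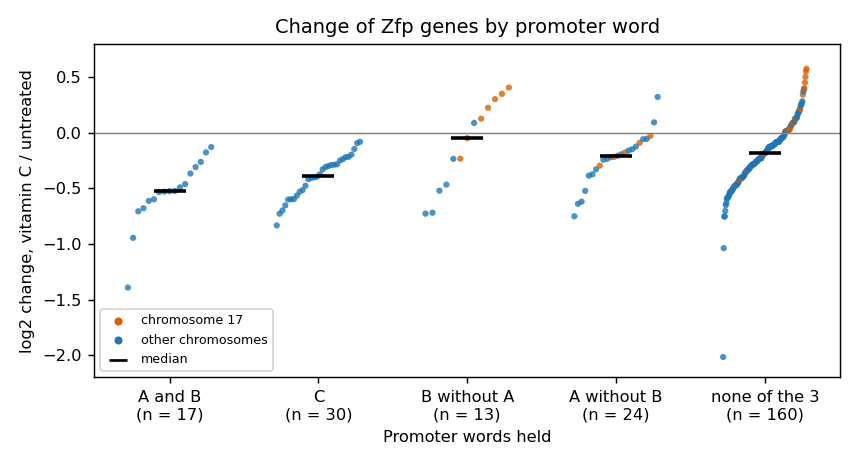
log2 change of Zfp genes grouped by promoter words, where A is the longer CCAAT word, B the word found with it in 17 promoters and C the third word, with the median of each group as a bar. 1 gene, Zfp189, has words A and C and is drawn under both. Points of the groups with A and B (n = 17) and with C (n = 30) all lie below 0, and in the group with B but not A 5 of the 6 points above 0 are on chromosome 17 (orange).

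Methylation was compared through the authors' region lists, which give positions without values. The MeDIP deMR and WGBS iMR lists came with untreated mutant samples. The MeDIP iMR, WGBS deMR and hMeDIP iHR lists came with vitamin C mutant samples. Which libraries each list compared was not stated, so the same tag in MeDIP and WGBS need not have the same meaning. A region was counted for a gene when it overlapped the gene span with 5 kb on each side. Of 290 Zfp genes 123 had a region of any of the 6 lists (42.4 percent), against 53.2 percent of 9781 other genes, and 167 had none. Zfp windows are shorter, with a median of 26.5 kb against 32.5 kb, so regions per Mb of window are given as well.

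The clearest gap was in the WGBS list named deMR. It had a region at 28 Zfp genes (9.66 percent, where 20.5 percent of all genes tested had one), which is 2.84 regions per Mb against 5.80 per Mb at other genes. The share was lower in each of 3 classes of window length, with 5.05, 10.0 and 19.5 percent of Zfp genes against 10.7, 17.5 and 34.0 percent of other genes from short to long. In the WGBS list named iMR the order was the reverse, with 27 Zfp genes (9.31 percent, background 7.76 percent) and 2.74 regions per Mb against 1.77. By window length this held for short windows (9.09 against 5.95 percent) and long ones (24.4 against 11.9 percent), while the middle class, with 150 of the 290 Zfp genes, had 5.33 against 5.18 percent and 1.68 against 1.73 per Mb.

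The immunoprecipitation lists differed less. The list called mutant MeDIP here came with the untreated wild-type IDH1 sample, and the libraries it compared were not stated. It had a region at 32 Zfp genes (11.03 percent, background 15.5 percent), with 3.57 per Mb against 3.45. The MeDIP deMR list had 28 genes (9.66 percent, background 15.5 percent) with 2.74 per Mb against 3.56, and the MeDIP iMR list had 19 genes (6.55 percent, background 8.03 percent) with 2.20 against 1.71. The list of hydroxymethylated regions, named hMeDIP iHR, had 45 genes (15.5 percent, background 20.9 percent) with 4.76 against 5.72 per Mb. Counts of 24 to 52 regions at Zfp genes limit how finely these lists can be compared.

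**Figure D5:**
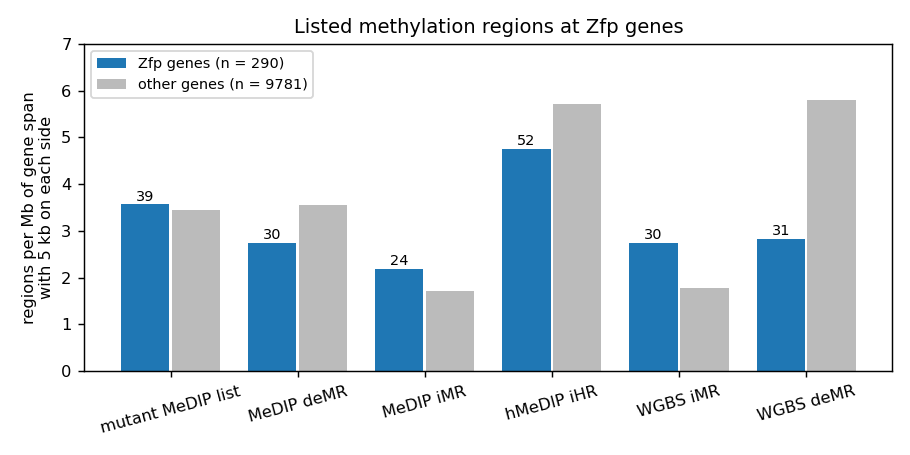
Regions of each authors' list per Mb of gene span with 5 kb on each side, for 290 Zfp genes (blue) and 9781 other genes (grey), with the number of regions at Zfp genes over the blue bars. The WGBS deMR bar of Zfp genes (2.84 per Mb) stands lowest relative to its grey bar (5.80 per Mb). The bars of the MeDIP iMR and WGBS iMR lists and, by little, that of the mutant MeDIP list (3.57 against 3.45) stand above theirs. The 2 iMR lists came with different samples, MeDIP with vitamin C and WGBS untreated.

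Levels of Zfp genes with and without a listed region were set side by side. The median log2 change of Zfp genes with a region was -0.35 for the mutant MeDIP list, -0.32 for MeDIP deMRs, -0.31 for MeDIP iMRs, -0.28 for hMeDIP iHRs, -0.12 for WGBS iMRs and -0.25 for WGBS deMRs. Without the region it lay between -0.23 and -0.24 in each list. Zfp407, a very long gene, had the most regions, 10 from 4 lists, with 5.34 RPKM untreated and 3.89 RPKM with vitamin C. Zfp704 and Zfp710 had 6 each, with 12.3 and 9.08 RPKM and with 20.6 and 16.9 RPKM.

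Within 2 kb of the start site, 28 Zfp genes had a region of some list. The share of all genes was counted for each list but not for the lists together. The WGBS iMR list gave 9 of them (background 3.58 percent of genes with a start site, here 3.70 percent), of which 7 were lower. They include Zfp580 at chr7:5052554-5053300 (6.36 RPKM untreated and 4.65 RPKM with vitamin C), Zfp429 at chr13:67399985-67400177, Zfp677 at chr17:21383983-21384000, Zfp78 at chr7:6361617-6361985 and, higher with vitamin C, Zfp637 at chr6:117840394-117840637 (10.2 and 11.2 RPKM). The mutant MeDIP list gave 7 (background 2.40 percent, here 2.88 percent), of which 6 were lower, among them Zfp760 at chr17:21707251-21708000, Zfp873 at chr10:82048001-82048500 (4.30 and 2.63 RPKM) and Zfp784 at chr7:5036001-5036500.

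Fewer start sites lay near regions of the other lists. The hMeDIP iHR list gave 6 (background 2.97 percent), such as Zfp113 at chr5:138154501-138155000 (4.00 and 2.41 RPKM) and Zfp867 at chr11:59471501-59472000 (2.33 and 1.47 RPKM). MeDIP deMRs gave 3 (background 1.40 percent): Zfp773 at chr7:7138135-7138635, Zfp382 at chr7:30121001-30121500 and Zfp984 at chr4:147808001-147808500. WGBS deMRs gave 2 (background 3.85 percent), at Zfp72 and Zfp850, and MeDIP iMRs gave 1 (background 0.480 percent), at Zfp799. Whole cluster spans held 1.88 hMeDIP iHRs per Mb against 3.21 over the autosomes, while WGBS iMRs stood at 3.13 against 3.20 per Mb, with 12 of the 60 in cluster 17a. The mutant MeDIP list was denser in cluster spans (2.29 against 1.71 per Mb), and WGBS deMRs had 2.14 against 2.56 per Mb, a smaller gap than at gene windows. MeDIP deMRs had 1.56 against 1.55 and MeDIP iMRs 1.83 against 1.87 per Mb.

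Peaks at the start site, within 1 kb, were about as common at Zfp genes as elsewhere for the histone marks. H3K4me3 peaks were at 238 of 243 Zfp start sites untreated (97.9 percent, background 94.9 percent) and at 237 with vitamin C (97.5 percent, background 94.9 percent). H3K27ac peaks were at 220 (90.5 percent, background 89.7 percent) and 215 (88.5 percent, background 89.1 percent). Below a mean of 5 RPKM the share with an untreated H3K27ac peak was 83.9 percent against 68.9 percent of other genes. A peak of H3K27ac was absent from both lists at 22 of 243 Zfp start sites, among them Zfp827, all 5 genes of cluster 2c and Zfp119b. The same held at 758 of 7878 other start sites, a like share. The start site used was the most upstream one annotated. Zfp119b held 3 and 4 H3K27ac peaks elsewhere in its span with 5 kb on each side.

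Over all levels, H3K4me1 and PU.1 peaks were at fewer Zfp start sites with vitamin C. H3K4me1 peaks were at 138 Zfp start sites (56.8 percent, background 54.8 percent) untreated and 109 (44.9 percent, background 44.3 percent), and PU.1 peaks at 99 (40.7 percent, background 42.0 percent) and 49 (20.2 percent, background 18.8 percent). For H3K4me1 this varied with expression level. Below 5 RPKM the Zfp share was 52.7 percent untreated and 56.3 percent with vitamin C, where other genes had 49.8 and 42.2 percent. From 10 to 20 RPKM it was 61.7 and 34.0 percent, where other genes had 56.4 and 43.4 percent. With only the peaks ranked above the median of each list, the H3K4me1 counts were equal, at 65 start sites in both conditions. All 49 Zfp start sites with a PU.1 peak after vitamin C also had one untreated. This was near the rule for other genes too, where 1418 start sites had a PU.1 peak in both lists and 58 with vitamin C only. The PU.1 lists differ in length, with 61611 peaks untreated and 23522 with vitamin C, and the part of list length in these counts was not tested.

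Runx1 peaks were at a smaller share of Zfp start sites than of other start sites. They were at 35 Zfp start sites untreated (14.4 percent, background 26.8 percent) and at 64 with vitamin C (26.3 percent, background 46.5 percent). Below 5 RPKM the shares were 7.14 percent of Zfp genes against 18.4 percent of others untreated and 14.3 against 34.4 percent with vitamin C. From 10 to 20 RPKM they were nearer, 25.5 against 28.6 percent and 42.6 against 49.3 percent. The Runx1 lists held 3908 and 6250 peaks, and the gain of listed peaks with vitamin C was thus present in both gene groups.

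Of the partners through which KRAB proteins silence their targets, all 35 listed genes were measured, 22 lower and 13 higher, with a median log2 change of -0.06. Trim28, the corepressor, had 181 RPKM untreated and 148 RPKM with vitamin C, and Setdb1, the H3K9 methyltransferase it recruits, had 26.5 and 20.7 RPKM. Ehmt2, another H3K9 methyltransferase, had 90.3 and 122 RPKM and Uhrf1, which guides maintenance methylation, 55.9 and 91.7 RPKM; both lie on chromosome 17. Dnmt3b, a de novo DNA methyltransferase, had 2.54 and 0.681 RPKM and was the 1 listed gene past 2-fold.

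The markers of the labelled cell type were present. All 12 myeloid progenitor markers were measured, with a summed level of 7012 RPKM untreated and 3736 RPKM with vitamin C, of which Hoxa9 made 3062 and 1487 RPKM. Since the cells were immortalized by HOXA9, the Hoxa9 level follows from the design and is no separate sign of cell type. Whether reads of the introduced HOXA9 were counted in it was not tested. Of the 12 markers 9 were lower and 3 higher, the higher ones being Cd34 (299 and 498 RPKM), Itgam (21.07 and 27.04 RPKM) and Csf1r (0.874 and 1.35 RPKM). The lower ones include 4 past 2-fold, Hoxa9, Kit (32.1 and 5.07 RPKM), Mpo (796 and 131 RPKM) and Prtn3 (285 and 107 RPKM). Markers of mast cells and basophils summed to 2022 and 2713 RPKM, led by Cpa3, and all 6 were higher. Past 2-fold were 3 of them, Cma1 (0.359 and 14.6 RPKM), Ms4a2 (1.23 and 5.78 RPKM) and Gata1 (1.06 and 4.21 RPKM). Markers of fibroblasts summed to under 1 RPKM in both libraries, with Dcn and Col1a2 at 0, and T cell markers summed to 4.43 and 4.49 RPKM, nearly all of it Lck, with Cd3e and Cd8a at 0. Erythroid markers summed to 341 and 389 RPKM, led by Hbb-bs with 340 and 380 RPKM, and the 3 of 6 that reached 1 RPKM were higher, Hba-a1 with 0.135 and 4.12 RPKM. Megakaryocyte markers summed to 161 and 154 RPKM, led by Itga2b with 148 and 137 RPKM. The part of these marker differences in the levels of the Zfp genes was not tested.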

How the data were processed

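RNA-seq, ChIP-seq, MeDIP-seq, hMeDIP-seq and bisulfite sequencing (WGBS) libraries of 18 of 24 samples were used, each the only library of its group. Tools named in the submitters' processing notes, with no role, were MACS2 2.1.0.2, Picard, SAMtools 0.1.16, 0.1.8 and 0.1.2, Novoalign 3.02.08, CASAVA 1.8.2 and BWA, and the build was mm10. How reads were assigned to genes, and on which annotation, is not given in the sources used here. Each RNA table gives a read count (whole numbers) and an RPKM per gene, both as deposited by the authors, and 3 further unnamed columns per file were not used. Histone peaks come with a p-value or q-value from the authors, which of them was not stated, and PU.1 and Runx1 peaks with a score that the authors deposited without a definition. Both were used only to rank peaks within a list. Region lists hold positions alone. Repeated intervals were removed.

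Symbols were matched for 21611 of 22371 genes, and positions and promoters came from RefSeq tables of GRCm38.p6, the assembly of mm10. For a gene with several annotated start sites, the most upstream one was used. Genes that reached 1 RPKM in either library were compared by log2 of RPKM + 0.5. The interval of an RPKM ratio is the exact 95% binomial interval of its reads between libraries, and it covers counting error only. The read counts summed over all genes were 86804487 untreated and 111453443 with vitamin C. Without replicates, counts were described beside those over all genes, and medians beside those over other genes. The members, lists and rules were chosen with earlier results of these data known. The rule named the 10 highest levels, the 12 highest and 12 lowest changes, genes past 2-fold, cluster members, genes with a region within 2 kb of the start, 3 genes on each side of the threshold and a set of 26 genes with described roles. The 5 Mb neighbour window, the boundary at 90 Mb of chromosome 7 and the promoter words were chosen after seeing the data. Counting of KRAB box patterns in proteins was not done, as no protein table was used here. Scripts ran on Python 3.11.15 with numpy 2.4.6, pandas 2.3.3, scipy 1.17.1 and matplotlib 3.10.9 and were tested on simulated data. Of the marker lists, 1 is not reported here. Alternatives covered the pseudocount, the filter, scaling, cluster definition, windows and peak strength.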

Additional observations from a re-analysis of the deposited data

How the results depend on the processing

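The median log2 change of the Zfp genes stayed between -0.19 and -0.29 under all 8 alternatives, including upper quartile scaling (-0.24), centring on all genes (-0.20), leaving out chromosome 17 and distal chromosome 7 (-0.29) and subtracting the neighbours' median (-0.22). The last 2 were chosen after seeing the data. The 3 genes 2-fold lower became 5 with a pseudocount of 0.1 RPKM, 2 with a pseudocount of 1 RPKM or when centred on all genes, 1 with a filter of 5 RPKM, and 34 at 1.5-fold; 0 were 2-fold higher under any alternative. With the start site and 2 kb on each side in place of the span with 5 kb, Zfp genes with a region numbered 7 (mutant MeDIP), 3 (MeDIP deMR), 1 (MeDIP iMR), 6 (hMeDIP iHR), 9 (WGBS iMR) and 2 (WGBS deMR). With 20 kb on each side they were 50, 43, 43 and 54 for the mutant MeDIP, MeDIP deMR, WGBS iMR and WGBS deMR lists, and within the span alone 14 and 18 for the WGBS iMR and deMR lists. With only the peaks of each list ranked above its median, 65 and 65 start sites had an H3K4me1 peak, 57 and 27 a PU.1 peak and 18 and 31 a Runx1 peak, untreated and with vitamin C. Of 111 values recomputed, 87 stayed within 1.5 times of the reported value. Many of the 111 are counts, which cannot change direction. The log2 changes among them were the set median and those of Zfp827, Zfp866, Zfp821, Zfp414 and Zfp598, and 0 of these changed direction. The direction of other single genes was not followed. The share of Zfp genes below 0 was 81.2 percent as reported and 77.7 percent when centred on all genes, so some genes near 0 did change sides. No paired analysis was possible because each group has 1 library and no test was made. The KRAB box count and its alternative were not run.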
